A study of Mus musculus with 8 samples.

Results

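The 42 mouse genes described here encode the machinery that prepares DNA for replication and copies it. They are the 6 subunits of the origin recognition complex, the helicase loaders Cdc6 and Cdt1 with the inhibitor geminin (Gmnn), the 6 subunits of the MCM2-7 helicase, 8 factors that fire origins, 9 subunits of the replicative polymerases, the clamp PCNA with the 5 subunits of its loader, the 3 subunits of RPA, and the flap nuclease FEN1. They were chosen by symbol. All 42 were matched to 1 row each of a table of 55385 genes, and all 42 were among the 14929 genes with enough reads to test.

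The cells were mouse oocytes (C57BL/6 x 129/SvJ) grown in vitro from embryonic stem cells that carry the reporters Blimp1-mVenus and Stella-ECFP. The sex-converted XX line (N2DsRed4XO63R2) holds XX cells obtained from male cells, and the native XX line (H18) is labelled XX without conversion. Each kind of cell is represented by 1 line, so the kind and the line cannot be told apart. In both lines, 5000 primordial germ cell-like cells were combined with 75000 gonadal somatic cells of female embryos at day 12.5 to form reconstituted ovaries, which passed through 21 days of differentiation culture and then growth culture. Germinal vesicle (GV) oocytes, arrested in the first meiotic prophase, were taken on day 11 of growth culture after treatment with dbcAMP and IBMX, with the cumulus cells removed by glass capillary. Metaphase II (MII) oocytes were taken after 16 hours of maturation in vitro, freed of cumulus cells with hyaluronidase and recognised by the first polar body. Each stage of each line has 2 libraries of polyadenylated RNA, from pools of 31 to 158 oocytes at GV and 35 to 58 at MII. The comparison asks which polyadenylated replication mRNAs are found before maturation and which are found when the oocyte is ready to be fertilised.

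Before S phase, the origin recognition complex, Cdc6 and Cdt1 load the MCM2-7 helicase onto DNA in an inactive form, a step called licensing, and geminin binds Cdt1 to prevent loading at the wrong time. The kinase Cdc7 with its activator Dbf4, the helicase partner Cdc45 and the GINS complex then start the helicase, after which the polymerases, the clamp and its loader copy the strands. No S phase separates the meiotic divisions of an oocyte, transcription is largely silent while it matures, and the first replication after fertilisation relies on stored mRNA and protein. Many stored mRNAs are removed during maturation, while others receive longer poly(A) tails through a cytoplasmic polyadenylation element near their 3′ end and are translated.

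The libraries held 10306471 to 14999003 reads in genes. Those of 1 stage correlated at 0.961 to 0.981 in log CPM and those of different stages at 0.759 to 0.796. All 12 oocyte markers had reads in every library, with a summed level of 13932 to 16826 CPM at GV and 17822 to 21354 CPM at MII. Their median went the other way, from 736 to 887 CPM over the GV libraries to 514 to 709 CPM over the MII libraries. Gdf9, Oosp1, Dppa3 and Mos were higher in every MII library than in any GV library. Bmp15, Zp2, Zp3, Figla, Nobox, Nlrp5 and Ooep were lower, and the stages of Zp1 overlapped. The summed level of 17 granulosa and cumulus markers was 57.2 to 79.6 CPM at GV and 123 to 195 CPM at MII. The highest value was in native MII library 1, where 15 of the 17 had reads, and 9 to 14 had reads in the other 7 libraries. Of these 17 markers, Foxl2 had 10 reads and Wt1 had 7 in native MII library 1, and both were at 0 in the other 3 MII libraries. That library also had 145 reads of Fst, 84 of Inha, 56 of Inhba, 33 of Hsd17b1 and 25 of Tnfaip6. In the other 3 MII libraries these genes had 0 to 29 reads. Fshr was at 0 in all 4 MII libraries. Fshr had 7 to 24 reads per GV library. Other markers of the list were higher at MII: Cyp19a1 went from 12.4 to 19.4 CPM over the GV libraries to 47.9 to 63.4 CPM, Kitl from 3.16 to 5.95 CPM to 21.2 to 35.7 CPM, Has2 from 0.556 to 2.2 CPM to 4.58 to 6.67 CPM, and Gja1 from 0.298 to 1.17 CPM to 2.09 to 44.8 CPM, the highest in native MII library 1. Nr5a2, of the same list, was lower at MII, from 31.3 to 47.3 CPM over the GV libraries to 24.1 to 30 CPM. The 10 stromal markers summed to 3.69 to 4.56 CPM at GV and 7.44 to 11.3 CPM at MII, with Col1a2 and Lum at 0 in all 8 libraries. The part of other cells in the results was not tested, and fewer cells of a type and less RNA per cell cannot be told apart in pooled samples.

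From GV to MII the replication genes split, with some subunits of a complex rising while others of the same complex fell to a few reads. Most tested genes changed too, 65.2% in the native and 65.5% in the sex-converted line. Whether complexes split more than other groups of genes was not tested. The median size of the log2 fold change was 1.8 and 1.79 for the 42, beside 1.63 over all tested genes in each line. In the native line, 14 of the 42 rose and 22 fell at an adjusted p under 0.05, against 29.6% of all tested genes that rose and 35.7% that fell. In the sex-converted line, 15 rose and 21 fell, against 29.3% and 36.2% of all tested genes. As shares of the 42, these counts were 33.3% and 52.4% in the native line and 35.7% and 50% in the sex-converted line. The median log2 fold change of the 42 was -0.75 in the native and -0.64 in the sex-converted line, beside -0.31 and -0.35 over all tested genes. CPM here is each gene's count over the library total, scaled by trimmed mean of M-values (TMM), so a change is relative to the other polyadenylated mRNAs, and the total mRNA per oocyte was not measured. With scaling by library totals alone, the median of all genes moved by -0.908 and -0.931 on the log2 scale in the native and sex-converted lines, the share of calls that were higher went from 45.3% to 24.6% and from 44.7% to 23.4%, and the 42 genes split into 10 higher and 26 lower in each line.

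In both lines the same 14 genes rose: Orc1, Orc6, Gmnn, Mcm2, Mcm4, Mcm7, Cdc7, Dbf4, Cdc45, Pola2, Pole2, Pcna, Rfc5 and Rpa3, of which Mcm4, Mcm7 and Pola2 had log2 fold changes of -0.30 to -0.02 with library totals alone. The 21 that fell in both lines were Orc3, Cdc6, Cdt1, Mcm3, Mcm5, Mcm6, Mcm10, Gins1, Gins2, Gins4, Prim1, Pold1, Pold2, Pold3, Pole, Rfc2, Rfc3, Rfc4, Rpa1, Rpa2 and Fen1. Orc2 passed the test in the native line only, where it fell, and Prim2 in the sex-converted line only, where it rose. The other 5, Orc4, Orc5, Gins3, Pola1 and Rfc1, passed it in neither. With library totals alone, Orc2, Orc4, Orc5, Pola1 and Rfc1 fell in both lines at an adjusted p under 0.05. A change of 4-fold or more in both lines was found upward for 4 genes (9.52%), beside 9.96% of all tested genes, and downward for 14 genes (33.3%), beside 20.7%.

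**Figure D1:**
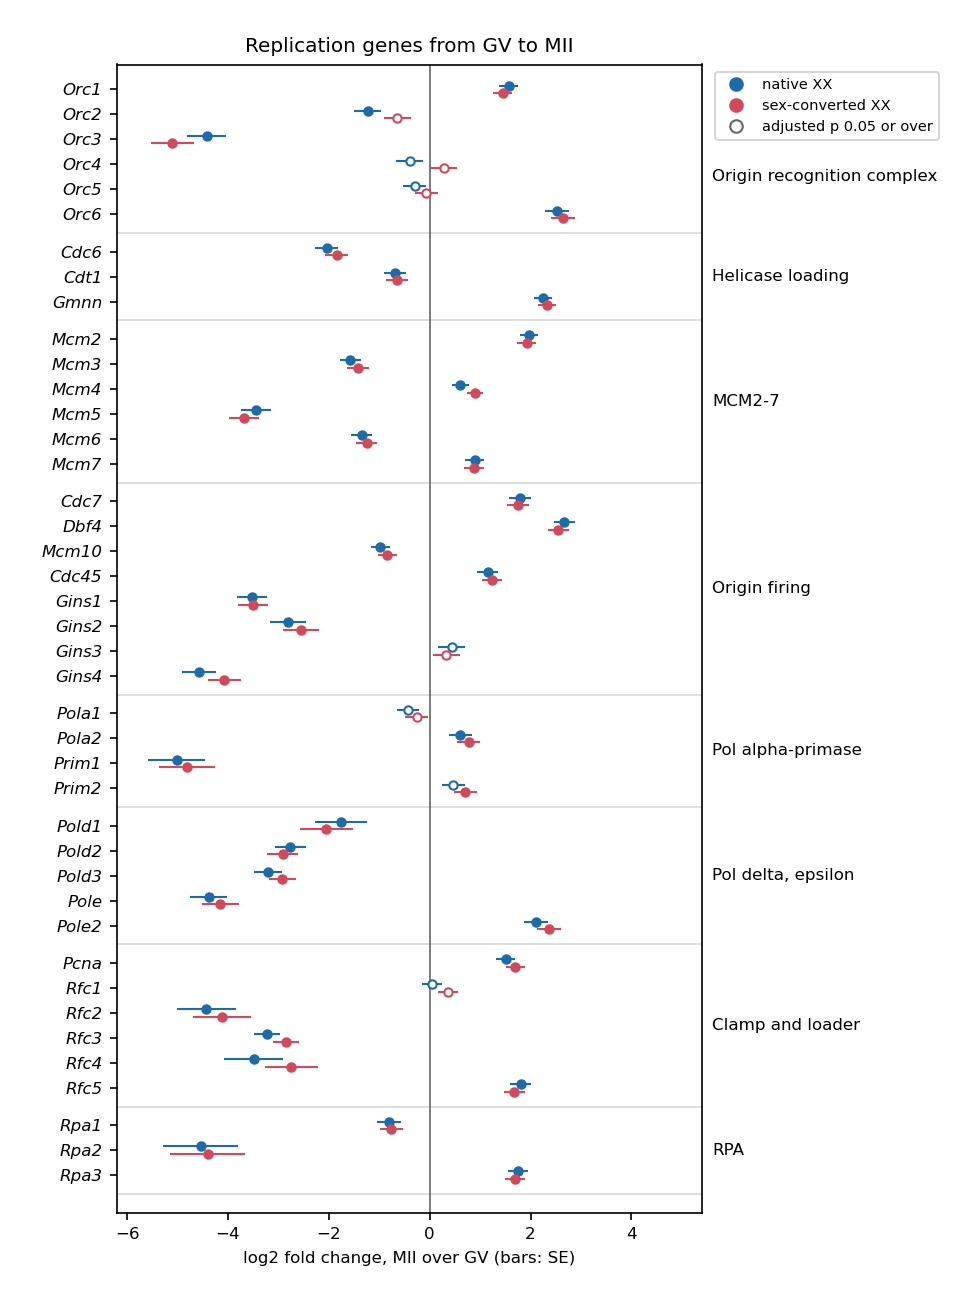
Log2 fold change from GV to MII (horizontal axis) of 41 replication genes, grouped by role, in the native XX (blue) and sex-converted XX (red) lines. Points are edgeR estimates with their standard errors as bars, open points did not pass an adjusted p of 0.05, and Fen1 is left out because only 3 reads remained at MII in each line. The 2 lines lie close together for each gene, and every group holds points on both sides of 0, although with scaling by library totals alone Mcm4, Mcm7, Gins3, Pola2, Prim2 and Rfc1, and in the sex-converted line Orc4, lie below 0.

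The 3′ ends of these mRNAs are shown because the libraries hold only polyadenylated RNA, so that a longer tail and more mRNA cannot be told apart. Nor can a shorter tail and less mRNA, so a fall need not be a loss of the mRNA. In the last 150 bases of 1 transcript per gene (GENCODE M21, GRCm38; the longest coding sequence, then the longest transcript), a script looked on the transcript strand for the polyadenylation element TTTTAT or TTTTAAT, the polyadenylation signal AATAAA or ATTAAA, and the Pumilio element TGTANATA. The windows of 30 bases below are from annotated 3′ ends, written 5′ to 3′, with the elements and signals in capitals. The first 7 are of genes that rose, and the last 4 are of genes that fell, which hold a signal and no polyadenylation element in the window searched.
Orc6: tggttttttaaaTTTTATttcactaaatgt
Gmnn: atTTTTAATccgTTTTATGTAAATAgcatt
Mcm2: gtttattTTTTAATagatttgAATAAAacc
Mcm7: gcacttTTTTATtctgccAATAAAgtgttt
Dbf4: tacAATAAAaacttaatgacttaTTTTATa
Cdc45: ggtTTTTAATAAAatgtttgatgTTTTATc
Pole2: tTTTTATcttatgtattttgtatATTAAAt
Mcm5: cttctgagtactgggATTAAAagtgtgggc
Mcm6: cttttacccatgaaAATAAAacaacttgtt
Prim1: caagagccctgaaacAATAAAtcaagaata
Gins1: tcttataattgaaAATAAAcagtctttggt

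In order, these windows lie at chr8:85308005-85308034 (plus strand), chr13:24751913-24751942 (minus), chr6:88883486-88883515 (minus), chr5:138164608-138164637 (minus), chr5:8397011-8397040 (minus), chr16:18780450-18780479 (minus), chr12:69201801-69201830 (minus), chr8:75128406-75128435 (plus), chr1:128331596-128331625 (minus), chr10:128029952-128029981 (plus) and chr2:150931233-150931262 (plus). Gmnn holds both forms of the element, and the second runs into a Pumilio element. Cdc45 holds an element that runs into its signal and another after it. Dbf4 holds an element on each side of its signal, and its window shows the one after it.

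A polyadenylation element was present in 18 of the 42 genes (42.9%), beside 23.9% of 12556 tested genes with a coding transcript. It was present in 10 of the 14 genes that rose in the native line and in 5 of the 22 that fell, which were Cdt1, Mcm10, Pole, Rfc2 and Rfc3. Over all tested genes the element was in 38.1% of those that rose and 13.3% of those that fell. The median log2 fold change in the native line was 0.75 for the replication genes with the element and -1.90 for those without, beside 0.93 and -0.65 over all tested genes. In the sex-converted line these medians were 0.89 and -1.94, beside 0.92 and -0.70. The rising genes without an element were Cdc7, Pola2, Pcna and Rfc5. The polyadenylation signal was present in 34 genes (81%), beside 79.2% of all, and the Pumilio element in 7 genes (16.7%), beside 6.43% of all. A match is a description of letters, and the annotated 3′ end need not be the one used in these oocytes. With the last 300 bases in place of 150, the element was in 10 of the 14 genes that rose and 8 of the 22 that fell. Over all tested genes it was then in 50.6% of those that rose and 21.1% of those that fell. It was in 50% of the 42, beside 33.8% of all.

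**Figure D2:**
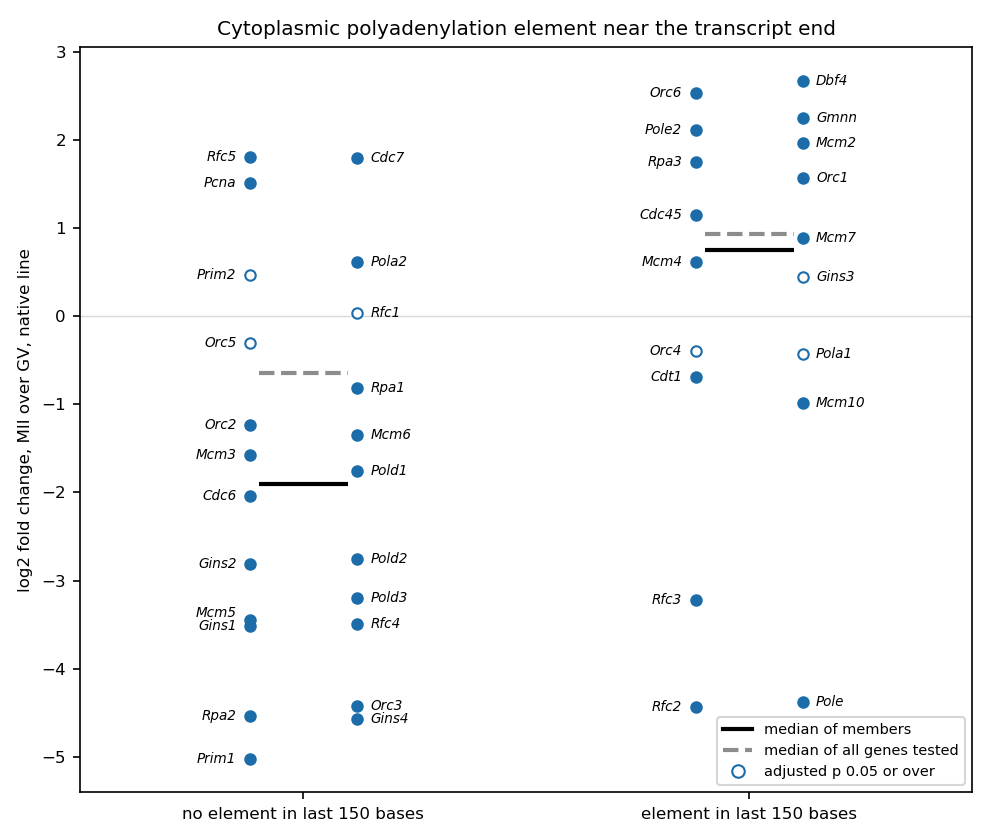
Log2 fold change from GV to MII in the native line (vertical axis) of 41 replication genes without (left) and with (right) a polyadenylation element, TTTTAT or TTTTAAT, in the last 150 bases of the transcript. Solid bars are medians of the replication genes, -1.90 and 0.75, dashed bars are medians of all tested genes, -0.65 and 0.93, open points did not pass the test, and Fen1 is not drawn. Genes with large falls lie mostly on the left, with Pole, Rfc2 and Rfc3 as the exceptions on the right, and Mcm4, Mcm7, Gins3, Pola2, Prim2 and Rfc1, drawn above 0, lie below it with scaling by library totals alone.

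The origin recognition complex, which marks origins and recruits the loaders, changed unevenly: in the native line 2 subunits rose, 2 fell and 2 did not pass the test. Orc6 (ENSMUSG00000031697.12, chr8:85299632-85308278), the smallest subunit, stood at 73.9 and 108 CPM in the sex-converted GV libraries and 124 and 87.0 CPM in the native GV libraries. At MII it reached 567 and 573 CPM in the sex-converted and 629 and 588 CPM in the native line, so that every MII library was above every GV library. The log2 fold change was 2.53 ± 0.234 (SE) in the native line (adjusted p = 4.63e-06) and 2.65 ± 0.235 in the sex-converted line (adjusted p = 3.66e-06). Orc3 (ENSMUSG00000040044.11, chr4:34570796-34614944) went the other way, from 40.0 and 58.8 CPM in the sex-converted and 72 and 40.1 CPM in the native GV libraries to 1.75 and 1.14 CPM and 2.58 and 2.66 CPM at MII. These groups lie far apart, with 12 to 27 reads per MII library, and the log2 fold changes were -4.42 ± 0.391 in the native line (adjusted p = 3.42e-06) and -5.10 ± 0.417 in the sex-converted line (adjusted p = 2.11e-06). Orc1, the subunit that in many cells is removed after licensing, rose by 1.57 ± 0.186 and 1.45 ± 0.186 on the log2 scale in the native and sex-converted lines (adjusted p = 2.59e-05 and 4.38e-05). A gene on the other strand overlaps 10.8% of the exon bases of Orc1.

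Orc2 fell in the native line, by 1.23 ± 0.268 on the log2 scale (adjusted p = 0.00194). In the sex-converted line its change was -0.64 ± 0.264 (adjusted p = 0.0519), or -1.57 with library totals alone (adjusted p = 0.000373). The second MII library of that line, at 57.6 CPM, stood apart from the other 3 MII libraries at 32.5 to 34.7 CPM. Without that library the change was -1.09 (adjusted p = 0.00958). The difference between the lines was 0.59 (95% interval -0.23 to 1.41) and did not pass its test. Nif3l1, on the other strand, overlaps 29.8% of the exon bases of Orc2. The log2 fold changes of Orc4 were -0.40 ± 0.27 (native, adjusted p = 0.21) and 0.28 ± 0.27 (sex-converted, adjusted p = 0.381). With library totals alone they were -1.31 and -0.65 (adjusted p = 0.00123 and 0.0435). Those of Orc5 were -0.30 ± 0.231 and -0.066 ± 0.231 (adjusted p = 0.278 and 0.811). In CPM, which is scaled by TMM, the GV and MII libraries of both genes overlapped in each line. When native GV library 2 was left out, the changes of Orc4 and Orc5 in that line were -0.76 and -0.58. Within single libraries, the TPM (counts per kilobase of exon, scaled to the same sum in every library) of Orc6 was 4.55 and 4.53 times that of Orc3 in the sex-converted GV libraries and 4.26 and 5.35 times in the native ones. At MII the ratio was 798 and 1239 in the sex-converted and 602 and 546 in the native libraries. Such a ratio does not depend on the scaling between libraries, but it counts polyadenylated mRNA only, so tail length and amount cannot be told apart. This pair, like the others below, was chosen after the values were seen. In TPM, which is not scaled by TMM, every MII library of Orc4 and of Orc5 was below every GV library of its line.

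Among the loading factors, the inhibitor rose and both loaders fell. Geminin mRNA (Gmnn, ENSMUSG00000006715.11, chr13:24751845-24761923) stood at 65.8 and 62.0 CPM in the sex-converted and 67.9 and 63.3 CPM in the native GV libraries, and at 313 and 328 CPM and 320.1 and 304 CPM at MII. Both stages were tight and far apart, and the log2 fold change was 2.25 ± 0.173 (native, adjusted p = 1.46e-06) and 2.33 ± 0.173 (sex-converted, adjusted p = 1.36e-06). Cdc6, the ATPase that joins the origin complex to load MCM2-7, went from 66.3 to 88.8 CPM over the 4 GV libraries to 16.2 to 27.7 CPM over the 4 MII libraries. Its log2 fold changes were -2.04 ± 0.23 and -1.84 ± 0.226 (native and sex-converted, adjusted p = 1.82e-05 and 3.43e-05). Cdt1, the loader that geminin binds, fell less, by 0.69 ± 0.219 on the log2 scale in the native and 0.64 ± 0.219 in the sex-converted line (adjusted p = 0.0171 and 0.0233). Its calls were lost without GV library 2 (-0.41, adjusted p = 0.132) or MII library 2 (-0.63, adjusted p = 0.0957) of the native line, and without either GV library (-0.58 and -0.66, adjusted p = 0.0858 and 0.0526) or MII library 2 (-0.48, adjusted p = 0.181) of the sex-converted line. In TPM, Gmnn was 0.798 and 0.811 times Cdt1 in the sex-converted and 1.04 and 0.682 times Cdt1 in the native GV libraries. The ratio was 5.49 and 7.34 at MII in the sex-converted and 6.16 and 6.6 in the native line, so that Gmnn had the higher TPM of the 2 in every MII library.

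The 6 subunits of the MCM2-7 ring, which act together in equal numbers in the loaded helicase, divided into 3 that rose and 3 that fell in each line. Mcm2 (chr6:88883474-88898780) rose from 108 to 135 CPM over the GV libraries to 424 to 492 CPM over the MII libraries, with log2 fold changes of 1.97 ± 0.187 (native, adjusted p = 5.61e-06) and 1.92 ± 0.187 (sex-converted, adjusted p = 6.58e-06). Mcm4 rose less, by 0.61 ± 0.165 and 0.90 ± 0.165 (adjusted p = 0.00727 and 0.000611), and Mcm7 rose by 0.89 ± 0.195 and 0.88 ± 0.195 (adjusted p = 0.00194 and 0.00213), but with library totals alone their values were -0.30 and -0.03 for Mcm4 and -0.02 and -0.06 for Mcm7. The call of Mcm4 in the native line was lost without MII library 2 (0.56, adjusted p = 0.0606). Mcm5 (ENSMUSG00000005410.6, chr8:75109569-75128439) fell from 167 and 134 CPM in the sex-converted and 125 and 174 CPM in the native GV libraries to 13.7 and 9.78 CPM and 16.3 and 11.0 CPM at MII. No GV library came near an MII library, and the log2 fold changes were -3.45 ± 0.295 (native, adjusted p = 2.74e-06) and -3.68 ± 0.298 (sex-converted, adjusted p = 2e-06). Mcm3 fell by 1.57 ± 0.214 and 1.42 ± 0.213 (adjusted p = 6.97e-05 and 0.000146) and Mcm6 by 1.35 ± 0.203 and 1.25 ± 0.203 (adjusted p = 0.000147 and 0.000254). Within libraries, Mcm2 was at 0.443 to 0.497 times the TPM of Mcm5 at GV and at 17.3 to 27.7 times at MII. The most abundant of the 6 subunits exceeded the least abundant by 2.83 ± 0.468 times (SD, n = 2) in the sex-converted and 3.1 ± 0.219 times in the native GV libraries, and by 30.2 ± 4.78 and 22.4 ± 6.58 times at MII.

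Of the 8 firing factors, 3 rose, 4 fell and 1 did not pass the test in each line. Both parts of the firing kinase rose. Dbf4 (ENSMUSG00000002297.16, chr5:8396973-8422716), which activates Cdc7, rose: 234 and 340.2 CPM in the sex-converted and 300.1 and 241 CPM in the native GV libraries became 1613 and 1749 CPM and 1706 and 1738 CPM. The stages did not overlap, and the log2 fold changes were 2.67 ± 0.206 (native, adjusted p = 1.48e-06) and 2.55 ± 0.205 (sex-converted, adjusted p = 1.9e-06). Cdc7, the catalytic part, rose by 1.79 ± 0.213 and 1.75 ± 0.211 (adjusted p = 2.65e-05 and 3e-05). Cdc45, which joins MCM2-7 and GINS in the active helicase, rose by 1.15 ± 0.203 and 1.24 ± 0.203 (adjusted p = 0.000465 and 0.000272), values that were 0.24 and 0.30 with library totals alone (adjusted p = 0.289 and 0.187). Mcm10, which acts with the helicase as it starts, fell by 0.98 ± 0.185 and 0.84 ± 0.184 (adjusted p = 0.000728 and 0.00193).

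GINS is a complex of 4 subunits, of which 3 fell. Gins4 (chr8:23226616-23237659) stood at 78.9 and 97.1 CPM in the sex-converted and 120.0 and 86.8 CPM in the native GV libraries and at 4.05 and 6.36 CPM and 5.25 and 3.35 CPM at MII, a log2 fold change of -4.57 ± 0.338 (native, adjusted p = 1.23e-06) and -4.07 ± 0.328 (sex-converted, adjusted p = 1.96e-06). Gins1 stood at 40.3 and 44.2 CPM and 54.8 and 43.0 CPM at GV and at 3.28 and 4.08 CPM and 4.86 and 3.58 CPM at MII, in the same order of lines, a change of -3.52 ± 0.293 and -3.51 ± 0.295 (adjusted p = 2.33e-06 and 2.51e-06). Every MII library was below every GV library for both genes. Gins2 went from 30.1 and 23.5 CPM in the sex-converted and 23.4 and 32.0 CPM in the native GV libraries to 5.80 and 3.32 CPM and 4.58 and 3.24 CPM. Its stages did not overlap either (log2 fold change -2.81 ± 0.363 native and -2.56 ± 0.357 sex-converted, adjusted p = 4.8e-05 and 8.56e-05), but 67.3% of its exon bases overlap those of Gse1 on the other strand, so its reads are uncertain. Gins3 did not pass the test, with log2 fold changes of 0.44 ± 0.267 and 0.33 ± 0.266 (adjusted p = 0.172 and 0.287), which were -0.47 and -0.60 with library totals alone. Its 4 GV libraries lay at 18 to 22.9 CPM and its 4 MII libraries at 21.9 to 30.7 CPM.

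**Figure D3:**
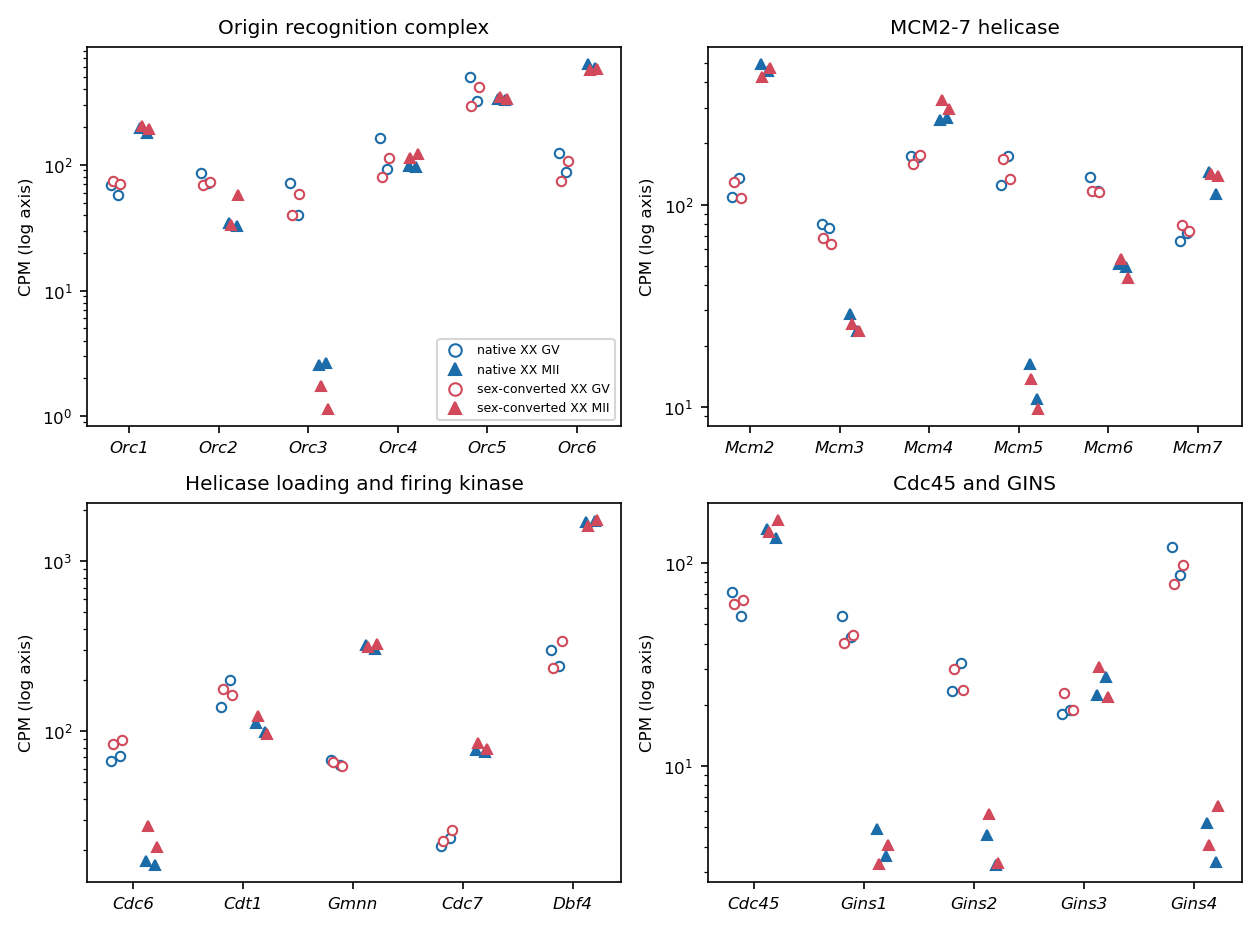
Level in CPM (vertical axes, log scale) of genes of origin recognition, helicase loading, the MCM2-7 helicase and its activation, in each of the 8 libraries. Open circles are GV and filled triangles MII libraries, blue is the native XX and red the sex-converted XX line. Orc6, Gmnn, Mcm2 and Dbf4 stand higher at MII, Orc3, Mcm5, Gins1 and Gins4 lower, and the GV and MII points of Orc4 and Orc5 overlap.

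Polymerase alpha with primase lays down the primers on which synthesis starts, and its 4 subunits did not move together. Prim1 (ENSMUSG00000025395.14, chr10:128015168-128030037), the catalytic primase subunit, stood at 28.6 and 36.3 CPM in the sex-converted and 37.9 and 29.9 CPM in the native GV libraries. At MII it was at 2.08 and 0.285 CPM in the sex-converted and 1.24 and 0.809 CPM in the native line, from 19, 3, 13 and 7 reads. The stages lie far apart, with log2 fold changes of -5.02 ± 0.565 (native, adjusted p = 1.8e-05) and -4.82 ± 0.557 (sex-converted, adjusted p = 2.18e-05). The latter was -3.96 without MII library 2, while without MII library 1 which left 3 reads, the GV level was 115 times that at MII (95% interval 39.4 to 560). The log2 fold change of Prim2, its partner subunit, was 0.47 ± 0.234 in the native line (adjusted p = 0.0985; -0.44 with library totals alone) and 0.71 ± 0.234 in the sex-converted line, where it passed the test (adjusted p = 0.0199) but was -0.22 with library totals alone. That call was lost without GV library 1 (adjusted p = 0.0999), MII library 1 (adjusted p = 0.0583) or MII library 2 (adjusted p = 0.0896), and the native line passed without its GV library 1 (0.72, adjusted p = 0.038). In TPM, Prim2 was 0.834 to 0.969 times Prim1 over the 4 GV libraries and 21.7 to 167 times Prim1 over the 4 MII libraries.

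Pola2, the second polymerase subunit, rose by 0.61 ± 0.226 in the native and 0.77 ± 0.226 in the sex-converted line (adjusted p = 0.0339 and 0.0109), with -0.30 and -0.16 under library totals alone. The native call was lost when any 1 of its own 4 libraries or either sex-converted MII library was left out (adjusted p = 0.0599 to 0.155), and the sex-converted call without its GV library 1 (adjusted p = 0.0971) or MII library 1 (adjusted p = 0.0557). Pola1, the catalytic subunit, gave -0.43 ± 0.226 and -0.26 ± 0.224 and did not pass the test (adjusted p = 0.116 and 0.325). With library totals alone Pola1 fell in both lines (-1.33 and -1.19, adjusted p = 0.000359 and 0.000731).

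Polymerases delta and epsilon extend the new strands. Of their subunits, 5 were chosen here, and 4 of these fell in each line. Pole (ENSMUSG00000007080.14, chr5:110286306-110337474), the catalytic subunit of epsilon, stood at 20.8 and 27.9 CPM in the sex-converted and 27.2 and 21.2 CPM in the native GV libraries, and at 1.20 and 1.52 CPM and 1.05 and 1.27 CPM at MII. These MII levels rest on 11, 16, 11 and 11 reads and lie far below every GV library (log2 fold change -4.38 ± 0.369 native and -4.15 ± 0.36 sex-converted, adjusted p = 2.52e-06 and 3.11e-06). Pole2 (chr12:69201773-69228195), the subunit that binds it, rose: 9.23 and 9.59 CPM and 11.5 and 9.34 CPM at GV became 46.4 and 50.5 CPM and 44.9 and 45.3 CPM at MII, in the same order of lines. The stages did not overlap (2.11 ± 0.239 native and 2.36 ± 0.24 sex-converted, adjusted p = 1.85e-05 and 8.84e-06). The TPM of Pole2 was 1.33 to 1.72 times that of Pole at GV and 129 to 166 times at MII.

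Pold3, an accessory subunit of delta and the most abundant of the 42 mRNAs per length at GV, went from 309 and 413 CPM in the sex-converted and 471 and 332 CPM in the native libraries to 58.0 and 37.7 CPM and 39.6 and 47.7 CPM. Its log2 fold changes were -3.20 ± 0.279 (native, adjusted p = 3.1e-06) and -2.92 ± 0.275 (sex-converted, adjusted p = 5.36e-06). Pold2, which bridges the catalytic and accessory subunits, went from 27.9 and 23.7 CPM and 28.9 and 26.6 CPM to 3.94 and 2.94 CPM and 4.58 and 3.58 CPM, in the same order (-2.76 ± 0.302 and -2.91 ± 0.306, adjusted p = 1.49e-05 and 1.13e-05). For both genes the MII libraries lay below all GV libraries. Pold1, the catalytic subunit, was low throughout, at 5.35 to 13.8 CPM at GV and 2.09 to 2.58 CPM at MII, and fell by 1.76 ± 0.522 and 2.05 ± 0.523 (native and sex-converted, adjusted p = 0.0118 and 0.00516). Its native call was lost without GV library 2 (-1.22, adjusted p = 0.0817) or MII library 2 (-1.68, adjusted p = 0.0556), and its sex-converted call without GV library 1 (-1.21, adjusted p = 0.0631).

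PCNA, the ring that holds the polymerases on DNA, and its loader of 5 subunits also divided: in each line 2 of these 6 genes rose, 3 fell and Rfc1 did not pass the test. Pcna rose from 99.8 to 129 CPM over the GV libraries to 317 to 371 CPM over the MII libraries, by 1.51 ± 0.188 (native, adjusted p = 3.55e-05) and 1.70 ± 0.189 (sex-converted, adjusted p = 1.63e-05). The annotation holds 2 processed pseudogenes named after Pcna, and no source used here says how reads matching several places were counted. Rfc5 rose from 26.6 to 32.5 CPM to 91.6 to 108 CPM (1.81 ± 0.209 and 1.68 ± 0.207, adjusted p = 2.07e-05 and 3.4e-05). Rfc1, the large subunit, had log2 fold changes of 0.043 ± 0.193 and 0.36 ± 0.193 (adjusted p = 0.858 and 0.121), which were -0.87 and -0.58 with library totals alone (adjusted p = 0.00231 and 0.0204).

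Rfc2 stood at 34.2 and 32.6 CPM in the sex-converted and 32.9 and 35.8 CPM in the native GV libraries, and at 3.28 and 0.665 CPM and 2.38 and 0.694 CPM at MII. The first MII library of each line was the higher, with 30 and 25 reads against 7 and 6, and all were far below GV. The log2 fold change was -4.43 ± 0.588 in the native line (adjusted p = 5.87e-05; -5.62 without MII library 1) and -4.11 ± 0.574 in the sex-converted line (adjusted p = 8.57e-05; -5.64 without MII library 1 and -3.34 without MII library 2). Rfc3 stood at 61.1 and 60.0 CPM in the sex-converted and 69.1 and 55.7 CPM in the native line at GV, and at 8.09 and 8.64 CPM and 7.63 and 5.66 CPM at MII. The stages did not overlap (-3.22 ± 0.262 native and -2.85 ± 0.256 sex-converted, adjusted p = 1.98e-06 and 3.89e-06). Rfc4, low at GV with 6.37 and 4.48 CPM in the sex-converted and 4.34 and 5.20 CPM in the native line, was at 0.437 and 1.14 CPM and 0.477 and 0.347 CPM at MII, from 4, 12, 5 and 3 reads. It too fell without overlap (-3.49 ± 0.586 native, adjusted p = 0.000326; -2.74 ± 0.53 sex-converted, adjusted p = 0.000869; the latter -3.60 without MII library 2). In TPM, Rfc5 was 1.09 to 1.35 times Rfc2 at GV and 37.7 to 220.2 times at MII. Genes on the other strand overlap 15.1% of the exon bases of Rfc2, 12.7% of those of Rfc4 and 10.7% of those of Rfc5.

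RPA coats the single strands that the helicase opens, and its subunits moved in both directions. Rpa2 (ENSMUSG00000028884.14, chr4:132768332-132778752), the middle subunit, stood at 101 and 72.2 CPM in the sex-converted and 64.7 and 116 CPM in the native GV libraries, and at 7.11 and 1.23 CPM and 6.49 and 1.04 CPM at MII. The first MII library of each line, with 65 and 68 reads, stood above the second, with 13 and 9 reads, and all 4 were below GV. The log2 fold change was -4.54 ± 0.747 in the native line (adjusted p = 0.00028; -6.44 without MII library 1, -3.83 without MII library 2) and -4.40 ± 0.743 in the sex-converted line (adjusted p = 0.000332; -6.13 and -3.61 likewise). Rpa3, the smallest subunit, rose from 23.0 to 32.0 CPM over the GV libraries to 75.3 to 108 CPM over the MII libraries (1.75 ± 0.205 native and 1.69 ± 0.205 sex-converted, adjusted p = 2.32e-05 and 3.05e-05). Rpa1, the large subunit, fell by 0.81 ± 0.233 and 0.76 ± 0.233 (adjusted p = 0.01 and 0.0138), a call lost without native MII library 2 (-0.59, adjusted p = 0.0966), sex-converted GV library 1 (-0.58, adjusted p = 0.0883) or sex-converted MII library 1 (-0.63, adjusted p = 0.103). In TPM, Rpa3 was 0.693 to 1.3 times Rpa2 over the GV libraries and 27.9 to 272 times over the MII libraries.

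Fen1, which trims the flaps between fragments of the lagging strand, had 56 and 50 reads in the sex-converted and 39 and 33 reads in the native GV libraries, and 2, 1, 3 and 0 reads at MII. Every MII library was below every GV library. Over the summed reads the GV level was 14.3 times that at MII in the native line (95% interval 4.69 to 70.7) and 18.6 times in the sex-converted line (6.2 to 91.7), intervals that cover counting error only. The fall passed the test in both (adjusted p = 0.00259 and 0.00131). Leaving out MII library 1 gave at least 6.45 times in the native line, against a floor of 3 reads over the group, and 29.9 times in the sex-converted line, and leaving out MII library 2 gave 7.81 and 13 times. An antisense gene overlaps 78.8% of the exon bases of Fen1, so its reads are uncertain.

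**Figure D4:**
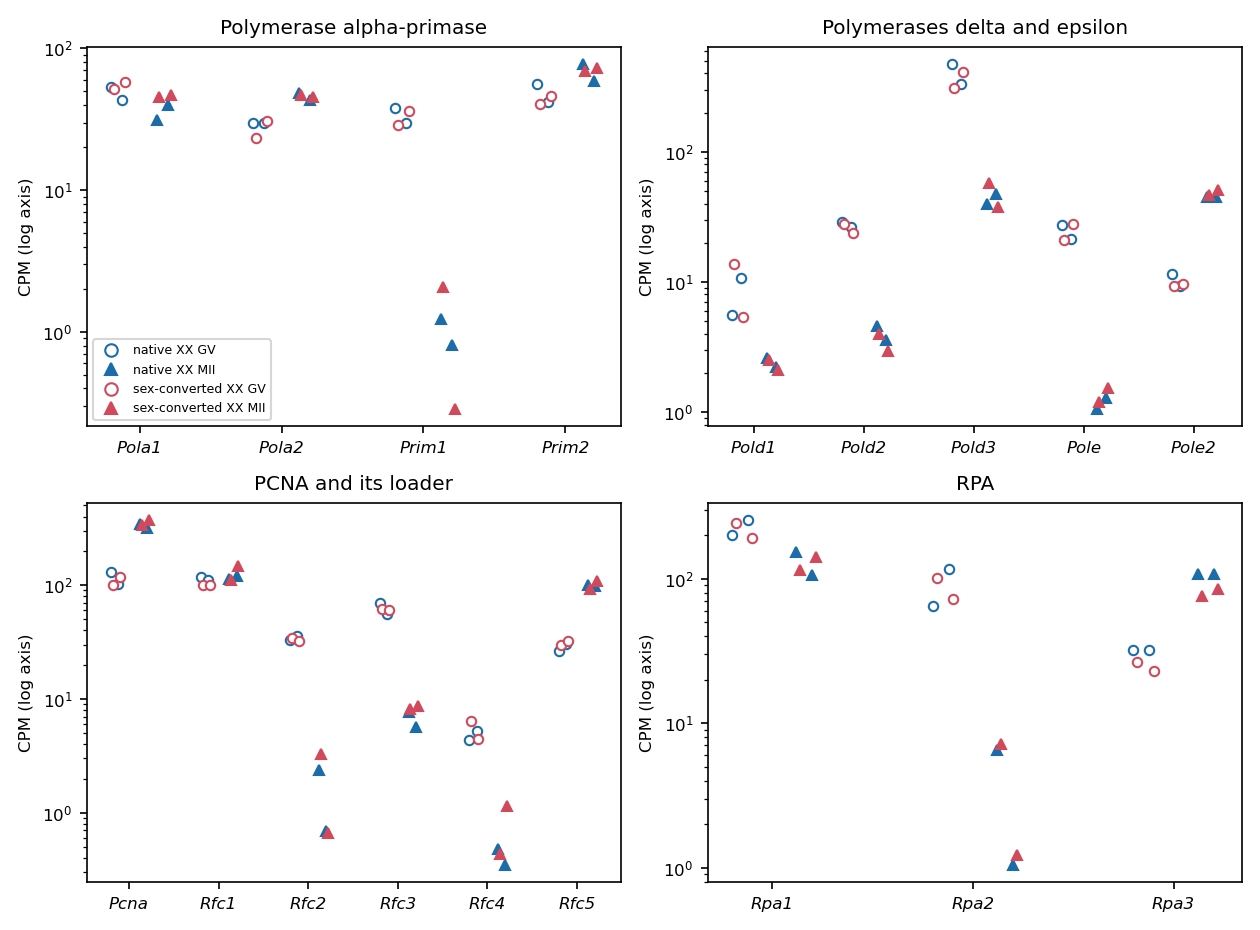
Level in CPM (vertical axes, log scale) of genes of the polymerases, the clamp and its loader, and RPA in each of the 8 libraries. Open circles are GV and filled triangles MII libraries, blue is the native XX and red the sex-converted XX line. Prim1, Pole, Rfc2, Rfc4 and Rpa2 lie under 10 CPM at MII, where the libraries of Prim1, Rfc2 and Rpa2 are the most spread, while Pole2, Pcna, Rfc5 and Rpa3 stand higher.

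Per length, the order of the 42 mRNAs changed between the stages. At GV the 3 most abundant were Pold3, Gins4 and Orc5 in both lines, with mean TPM of 407, 357 and 308 in the native line and 384, 319.7 and 281 in the sex-converted line. Their levels overlapped between libraries (343 and 470 TPM for Pold3 and 306 and 408 TPM for Gins4 in the native line), while within each of the 4 GV libraries Pold3 stood above Gins4 and Gins4 above Orc5. Fen1, Pold1 and Pole were the 3 lowest, at 4.33, 7.89 and 10.1 TPM in the native line. At MII the 4 most abundant were Orc6, Gmnn, Dbf4 and Pcna in both lines, with 667, 576, 534 and 373 TPM in the native and 639, 607, 534 and 408 TPM in the sex-converted line. Here the native libraries of Orc6 (673 and 661 TPM), Gmnn (577 and 575 TPM), Dbf4 (516 and 552 TPM) and Pcna (379 and 366 TPM) did not overlap between neighbours. Pold3 was at 25.7 and Gins4 at 8.58 TPM in native MII oocytes. Several catalytic or core subunits were at about 1 TPM or less: in the native MII libraries Orc3 was at 1.16, Prim1 at 0.713, Rfc2 at 0.652 and Pole at 0.282 TPM on average.

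The lines were close at each stage, and no member passed a test of the difference between them. For the difference in the change from GV to MII (sex-converted minus native), edgeR and DESeq2 called 0 of the 42 genes, and 0% of all tested genes were called by edgeR. At an unadjusted p under 0.05 edgeR found 0 of the 42 and 2.2% of all. The differences ran from -0.68 to 0.75 on the log2 scale, and their 95% intervals lay within ±1 for 26 genes and within ±2 for 38. At GV, 0 of 42 were called by either tool, beside 0.0134% of all tested genes, and 0 had an unadjusted p under 0.05, beside 2.15% of all. The differences (sex-converted over native) ran from -0.39 to 0.36, and 37 intervals lay within ±1. At MII, 0 of 42 were called by either tool, beside 0.0134% of all genes. Cdc6 alone had an unadjusted p under 0.05 (0.53, 95% interval 0.03 to 1.03, with an adjusted p of 1 in edgeR), beside 3.68% of all genes. Its MII libraries were at 27.7 and 20.6 CPM in the sex-converted and 17.2 and 16.2 CPM in the native line. The widest differences at MII were -0.86 for Orc3 and 0.93 for Rfc4, both from few reads, and 30 intervals lay within ±1. The intervals that reached beyond ±2 were those of Rfc2, Rfc4, Rpa2 and Fen1 for the change and of Rfc4 and Fen1 at MII, genes with 0 to 68 reads in an MII library. Across the 42 genes the log2 fold changes in the lines had a Pearson r of 0.994, beside 0.907 over all tested genes, as a description across genes that share the 8 libraries.

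Other genes of the pathway were read from 5 lists. Over all tested genes, 29.6% rose and 35.7% fell in the native line, and 29.3% and 36.2% in the sex-converted line. With library totals alone, 2488 of 14929 genes rose and 7609 fell in the native line, and 2376 and 7782 in the sex-converted line. The counts of all 5 lists stand beside these values and were not tested against them. Of 29 tested partners at the origin and the fork, 13 rose and 11 fell in the native and 14 and 12 in the sex-converted line, with medians of 0.34 and 0.45. With library totals alone, 10 rose and 14 fell in each line. The largest rises in the native line were those of Donson (2.81 native, 2.59 sex-converted) and Mtbp (2.75 and 2.66), which act in origin firing, and of the topoisomerase Top2b (2.41 and 2.80). Top2a, the topoisomerase of dividing cells, fell (-5.11 and -4.37), as did the firing factor Topbp1 (-4.68 and -4.54), with -5.47 in the sex-converted line without its MII library 1. The helicase gene Recql4 went from 411 to 7 reads in the native line (log2 fold change -5.12), all 7 of them in MII library 1, without which the GV level was at least 36.8 times that at MII (-4.27 without MII library 2) and from 454 reads to 1 in the sex-converted line, a GV level 239 times that at MII (95% interval 42.7 to 9467). That ratio was 111 without MII library 2 and at least 42.7 without MII library 1, against a floor of 3 reads over the group.

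Of 28 tested regulators of S phase, 15 rose and 8 fell in the native line and 16 and 8 in the sex-converted line, counts that were 14 and 12, and 14 and 11, with library totals alone. The medians were 1.42 and 1.49 beside -0.31 and -0.35 over all tested genes. Tfdp1, the partner of E2F factors, rose by 4.07 and 4.01 on the log2 scale, Skp2, which recognises proteins for degradation, by 3.10 and 2.93, and the retinoblastoma gene Rb1 by 2.62 and 2.64. The largest falls in the native line were those of Ccnf, a cyclin F-box gene (-4.85 and -5.50), the kinase Cdk2 (-3.92 and -3.62) and Fbxo5, an inhibitor of the anaphase-promoting complex (-3.87 and -3.29). Single libraries moved these falls: Ccnf was at -6.08 without native MII library 1 and, in the sex-converted line, at -4.64 without MII library 2, while without MII library 1, which left 3 reads, the GV level was 181 times that at MII (95% interval 61.8 to 877). In the latter line Cdk2 was at -3.02 without GV library 1, -4.71 without MII library 1 and -2.97 without MII library 2, and Fbxo5 at -4.17 without MII library 1.

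Of 19 tested genes of nucleotide supply, 7 were higher and 8 lower in each line. With library totals alone, 4 were higher and 11 lower in the native line and 4 and 10 in the sex-converted line. Rrm2b, a ribonucleotide reductase subunit, rose by 2.79 and 2.91, Dctd by 2.54 and 2.50 and Dut by 2.50 and 2.43 (native and sex-converted, log2 scale). Tyms, which makes thymidylate, fell (-4.02 and -4.35), as did Umps of pyrimidine synthesis (-3.49 and -3.47). Dctd and Dut, whose products lead to the substrate of thymidylate synthase, were higher at MII while Tyms itself was lower.

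Of 15 genes of chromatin assembly behind the fork, 8 rose and 3 fell in the native and 10 rose and 3 fell in the sex-converted line. With library totals alone, 6 rose and 5 fell in the native and 6 rose and 4 fell in the sex-converted line. Casp8ap2, a factor of histone gene expression, rose by 4.00 and 4.18, the histone chaperone subunit Rbbp7 by 2.20 and 2.19, and Slbp, which binds histone mRNAs, by 2.12 and 2.08. Tonsl fell (-4.83 and -5.86), and so did Chaf1a (-4.62 and -5.26) and Chaf1b (-4.01 and -5.20), subunits of the assembly factor that PCNA recruits. In the native line Chaf1a was at -5.30 without MII library 1 and Chaf1b at -3.29 without MII library 2. Without MII library 1 only 2 reads of Chaf1b were left, a GV level 72.6 times that at MII (95% interval 20 to 601). In the sex-converted line Tonsl was at -5.19 without MII library 2, and without MII library 1, which left 2 reads, its GV level was 126 times that at MII (34.8 to 1043).

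Of 14 other DNA polymerase genes, 4 rose and 5 fell in each line. With library totals alone, 2 rose and 7 fell in the native and 2 rose and 8 fell in the sex-converted line. Polm rose by 2.24 and 2.16, Rev1 by 2.04 and 2.18 and Polk by 1.71 and 1.60 on the log2 scale. Polk in the sex-converted line was at 2.38 without GV library 2, and its calls were lost with library totals alone (0.80, adjusted p = 0.0802 in the native and 0.68, adjusted p = 0.127 in the sex-converted line). Poll, Polb and Poli, polymerases of base excision repair or translesion synthesis, fell, with -2.94 and -3.01 for Poll, -1.15 and -0.70 for Polb and -1.06 and -1.16 for Poli. Poll was at -2.33 without native GV library 2. The calls of Poli were lost without native GV library 1 (-0.62, adjusted p = 0.181), native MII library 1 (-0.86, adjusted p = 0.106), sex-converted GV library 2 (-0.80, adjusted p = 0.11) or sex-converted MII library 1 (-1.05, adjusted p = 0.0674), and that of Polb in the sex-converted line without GV library 2 (-0.53, adjusted p = 0.179) or MII library 1 (-0.56, adjusted p = 0.164). In all 5 lists, 0 genes were called by edgeR in a test between the lines.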

How the data were processed

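The authors deposited raw gene counts. Per the submitters' processing notes, reads were trimmed with Trimmomatic 0.38, aligned with HISAT2 2.1.0 to mm10 and counted with featureCounts 2.0.0, and DESeq2 1.30.1 is named. Per the labels' protocols the libraries were directional, single reads of 75 bases after 13 PCR cycles. No source used here states the strand setting, the annotation or how multiply mapped reads were counted. Reads of overlapping genes can therefore be uncertain: 7 of the 42 genes share 10% or more of their exon bases with another gene (GENCODE M21). These are Orc1, Orc2, Gins2, Rfc2, Rfc4, Rfc5 and Fen1, each with a gene on the other strand.

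Tests used edgeR 4.0.16, R 4.3.3 (quasi-likelihood, TMM, filterByExpr with a minimum count of 10), with all 8 libraries in 1 fit and 4 residual degrees of freedom. Tests were two-sided, with Benjamini-Hochberg adjustment over 14929 genes and calls under 0.05. The biological coefficient of variation was 0.243. TMM factors lay between 1.33 and 1.43 for GV libraries and between 0.714 and 0.733 for MII libraries. Replicates differed beyond sampling noise (chi-square per gene 11 to 43.4), and the labels call them biological duplicates without saying what was separate, so p-values measure the spread between these libraries. Counts were also simulated from 1 mean per gene over all 8 libraries, so that only seeded genes differed between groups. Seeds were drawn from genes averaging 10 CPM or more. For native MII against GV (13997 genes), 36% of seeded 2-fold and 97% of 4-fold changes were recovered. For the lines at GV (14041 genes), 32% and 94% were. Each run gave 10 false calls. Recovery for genes under 10 CPM, or with most genes changing as between the stages here, was not tested.

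The members and lists were chosen with earlier results of these data known. Values in every library are given for members called with a log2 fold change of 2 or more in size in both lines. From each other list, log2 fold changes are given for up to 3 called genes per direction. These are the genes with the largest change in the native line among those averaging 10 CPM or more at the higher stage. Of 110 list symbols 109 matched. Alternatives were DESeq2 1.42.0, RLE factors, library totals alone, 2 filters, a replicate block, other sets of samples, and leaving out each library. The result of 1 gene that this rule would name is not reported here.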

Additional observations from a re-analysis of the deposited data

How the results depend on the processing

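With 2 libraries per group, small changes and genes with few reads at MII are the least secure, and depth limits the falls of Prim1, Pole, Rfc2, Rfc4 and Fen1 to what 0 to 30 reads per library can show. Between 12 and 14 members were higher and 19 to 22 lower in the native line on leaving out 1 library, and 13 to 15 and 18 to 21 in the sex-converted line. RLE factors and DESeq2 gave 14 and 22, and 15 and 21, as in the report. Of all 14929 genes, RLE factors gave 4495 higher and 5256 lower in the native line, and 4486 and 5303 in the sex-converted line. DESeq2 gave 4442 and 5067, and 4425 and 5109. With no filter on low counts the counts were 13 and 22, and 15 and 22, and with a mean of at least 50 reads 14 and 20, and 15 and 20, of 40 tested. With no filter, 4305 of all 26852 genes were higher and 5678 lower in the native line, and 4333 and 5645 in the sex-converted line. With a mean of at least 50 reads, these were 3650 and 4135, and 3634 and 4128, of 9947 genes. With only the groups compared the members split into 13 and 22, and 15 and 22. Over all genes these were 4221 and 5174 of 13821 in the native line, and 4377 and 5478 of 14022 in the sex-converted line. The deviations of same-numbered libraries correlated at -0.443 between the GV groups of the 2 lines and at -0.0617 to 0.171 between the other groups. The replicate numbers thus gave no common pairing, but opposite-numbered GV libraries of the 2 lines varied together. What these libraries shared was not tested. With a replicate block the counts were 13 and 22, and 15 and 21, and Pola2 in the native line was lost (0.61, adjusted p = 0.0582). Of all 14929 genes, the block gave 4203 higher and 5085 lower in the native line, and 4201 and 5149 in the sex-converted line. A crossed replicate block, with the native GV numbers swapped and chosen after seeing the data, added Orc2 in the sex-converted line (-0.67, adjusted p = 0.0234). Orc2 was also called there with no filter (adjusted p = 0.0261) and with a mean of at least 50 reads (adjusted p = 0.0249). Line comparisons and the interaction gave 0 called members under each alternative run.

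Library totals alone turned the direction of Mcm4 (-0.30 native, -0.03 sex-converted), Mcm7 (-0.02, -0.06), Pola2 (-0.30, -0.16), Rfc1 (-0.87, -0.58), Gins3 (-0.47, -0.60), Prim2 (-0.44, -0.22), and in the sex-converted line Orc4 (-0.65), with the median of all genes moving down as well. That setting added falls of Orc4, Orc5, Pola1 and Rfc1 in both lines and of Orc2 in the sex-converted line. The same setting gave 4 higher genes of nucleotide supply in both lines, 5 lower in the native and 6 higher in the sex-converted line for chromatin assembly, and 2 higher in both lines and 8 lower in the sex-converted line for other polymerases. The last was 3 with a mean of at least 50 reads, and in the native line 3 to 6 other polymerases were lower on leaving out 1 library. With transcript lengths in place of merged exons, Gmnn over Cdt1 was 0.729 at GV in the sex-converted and 5.78 at MII in the native line, and the highest over the lowest MCM2-7 subunit was 2.25 and 2.15 at GV and 39.7 and 36.1 at MII (sex-converted and native). With the last 300 bases, 8 falling members held a polyadenylation element, beside 21.1% of all falling genes. With any coding transcript of the gene, chosen after seeing the data, the median of members without one was -2.76, and 11 rising and 6 falling members held one. Over all tested genes that median was -0.83 in the native line, and 51.6% of rising and 20.4% of falling genes held one. The causes of these moves were not tested.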
